A study of Saccharomyces cerevisiae with 10 samples.

Results

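Peroxisome biogenesis and beta-oxidation strains are yeast deletion strains that lack a peroxin (a gene named PEX and a number) or 1 of 14 named genes for fatty acid breakdown and for the traffic of its products. The rule that picks them uses gene symbols and no measured value, though it was written with earlier results of these data known. Of 43 genes that RefSeq lists under these symbols, 40 have a spot on the array, and 38 strains were measured, out of 4611 measured strains in all. Of the 38, 26 lack a peroxin and 12 lack a metabolic gene. PEX11 and POX1 have spots with no value on any array, and the remaining genes are not analysed here. Both barcode tags were measured for 36 strains, and only the first tag for pex9Δ and pex22Δ.

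The strains were followed in a pool of viable haploid single-gene deletions, grown in the rich glucose medium YPD. In the acute response, 4 cultures were each divided. The acute portion received 0.4 mM hydrogen peroxide for 1 h, and the other portion was left untreated. For adaptation, 6 further cultures were divided, and the adapted portion received 0.1 mM for 45 min before the high dose, while its acute partner received a sham pretreatment and the same high dose. All portions then grew for 5 h without peroxide before genomic DNA was taken. Barcode tags were amplified and compared on two-colour arrays, with the more heavily treated portion always in Cy5. Each value is a log ratio, read here as a natural log, so that a strain with a value below 0 had become rarer in the portion treated more heavily. Abundance was measured relative to the rest of the pool, so death during treatment and slower regrowth cannot be told apart.

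Peroxisomes are membrane-bound compartments that break down fatty acids by beta-oxidation, a pathway whose first step produces hydrogen peroxide, which peroxisomal catalase removes. In yeast all beta-oxidation takes place there. Oleate in the medium induces the compartment and its enzymes, and glucose represses them. Their proteins are made in the cytosol and imported after translation by peroxins, which act as receptors, as a docking site, as ubiquitin ligases and as the motor that returns receptors to the cytosol.

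The size of a large response on these arrays is given by strains without the peroxide regulators YAP1 and SKN7. Their acute log ratios were −1.64 (standard error 0.13) and −1.49 (standard error 0.14), below 0 on 4 of 4 arrays each (yap1Δ by the first tag alone). A further reference strain, hyr1Δ, had an acute mean of −1.045 (standard error 0.27) and was also below 0 on 4 of 4 arrays. With a limma unadjusted p of 0.0093 it missed the threshold used here for the acute comparison. A loss of that size can therefore go uncalled. The overall direction of the ratios was set in earlier work on these data from the order of strains in the study's own fitness table, so these losses are no separate check of it. Correlations of strain values between arrays ran from −0.108 to 0.511 in the acute set and from −0.283 to 0.602 in the adapted set, and within the first tag alone they reached −0.664. An effect of the dye cannot be told apart from one of the treatment, since the dyes were never swapped. Each mean rests on 4 or 6 arrays.

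After the high dose, strains without peroxins or beta-oxidation genes stayed close to the middle of the pool. Of the 38 strains, 0 reached the unadjusted p of 0.005 used as the threshold for the acute comparison (two-sided test in limma), where 3.6% of all strains passed, 2.67% below 0 and 0.933% above. Loosening it to 0.05, still unadjusted, limma also gave 0 of 38, where 12.7% of all strains passed, 6.92% below 0 and 5.75% above. An adjusted p under 0.05 was reached by 0.0651% of all strains and by 0 members. The count at 0.005 was also 0 with 1 spread shared by all strains and with unmoderated spreads. The members' mean log ratios ran from −0.29 in pex30Δ to 0.29 in pex29Δ, with a median of −0.036 beside −0.015 over all strains, which ran from −1.64 to 1.09. Of the 38 means, 24 (63.2%) were below 0, as were 54.8% of the means of all strains. No member had a mean beyond 0.3 in either direction, where 15.2% of all strains did. The members' median SD between arrays was 0.267, against 0.225 over all strains.

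The intervals show how large a response these arrays leave room for. In the acute response the limma 95% interval lay between −0.5 and 0.5, a change of 1.65-fold, for 24 of 38 strains, as it did for 62.4% of all strains. It lay between −1 and 1 for 37 of 38, and for 92.8% of all strains. The exception among the members was cat2Δ, whose interval ran from −1.03 to 0.79. A loss of the size of yap1Δ is therefore outside the interval of each member. For the strains whose intervals reach beyond −0.5 or 0.5, a change of 1.65-fold in that direction is not excluded. The spread of each strain over the arrays and its interval are shown in the plot of member values by array.

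**Figure D1:**
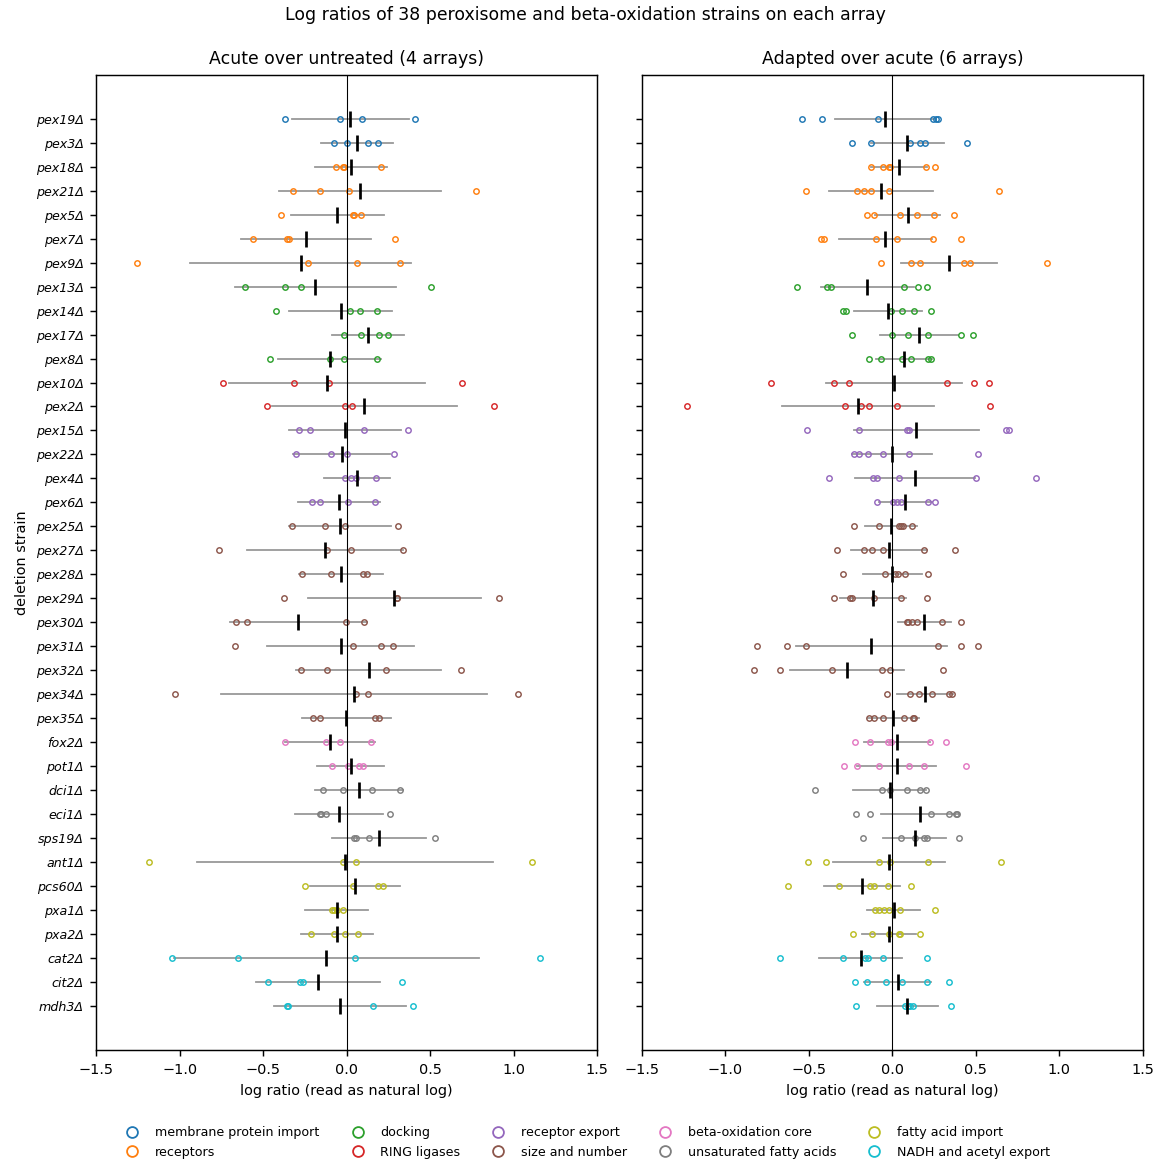
Log ratios of the 38 strains on each of the 4 acute arrays (left) and 6 adapted arrays (right), read as natural logs. Open circles are single arrays, coloured by role, black ticks are means and grey bars limma 95% intervals. All 38 acute intervals include 0, and in the right panel those of pex9Δ, pex30Δ and pex34Δ lie above 0.

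Between the adapted and the acute pool the strains again had means near 0. None of 38 passed the threshold of 0.005 in adapted over acute (limma, two-sided), where 2.78% of all strains passed, 1.52% below 0 and 1.26% above, and the count was 0 with a shared spread and with unmoderated spreads. No member reached an adjusted p under 0.05, as 0.0217% of all strains did. At the looser threshold, an unadjusted p under 0.05, limma gave 3 strains above 0, where 4.47% of all strains passed, and 0 below, where 6.38% passed. The 3 were pex30Δ, pex34Δ and pex9Δ. In both directions together 10.8% of all strains passed it. The median over the members was 0.00648, against −0.0127 over all strains, and the means ran from −0.27 in pex32Δ to 0.34 in pex9Δ. The interval lay between −0.5 and 0.5 for 33 of 38 strains and between −0.75 and 0.75 for all 38. Over all strains the shares were 82.7% and 96.6%.

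For the adaptive contrast, the mean acute over untreated log ratio was subtracted from the mean acute over adapted one. In a strain with an acute loss, a positive contrast marks a loss larger than what pretreatment gave back. The contrast can also be positive where the acute mean is above 0, as in pcs60Δ (acute 0.05, adapted over acute −0.18, contrast 0.13). It was fitted over all 10 arrays and shares them with both comparisons above. None of 38 strains passed the threshold of 0.005 (limma, two-sided), where 1.71% of all strains passed, 0.173% below 0 and 1.54% above, and the count was 0 with a shared spread and with unmoderated spreads. An adjusted p under 0.05 was reached by 0.347% of all strains and by 0 members. The looser threshold of 0.05 gave 1 strain, sps19Δ below 0 (limma), where 5.55% of all strains passed, 1.54% below 0 and 4.01% above. The members' median contrast was 0.0328, beside 0.0241 over all strains. The yap1Δ and skn7Δ strains had contrasts of 2.04 and 2.01, and the highest upper bound among the members was 1.10, in cat2Δ.

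**Figure D2:**
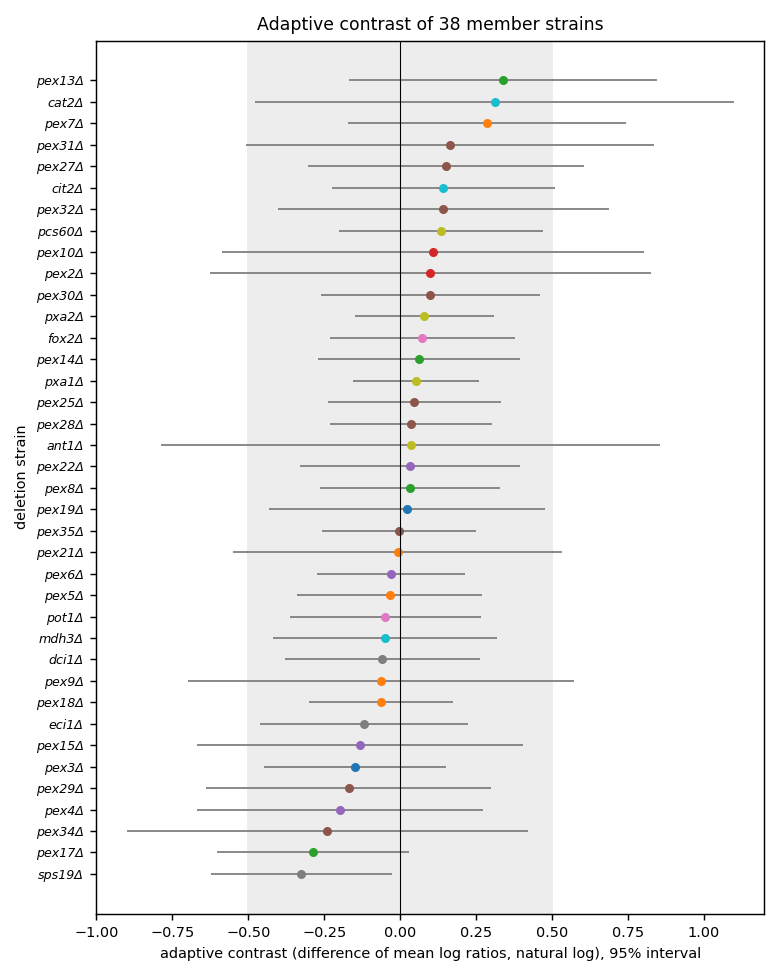
Adaptive contrast of each of the 38 strains with its limma 95% interval, on the natural log scale, ordered by value and coloured by role as in the plot of values by array. The grey band marks −0.5 to 0.5, and the interval of sps19Δ alone lies wholly on one side of 0.

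Strains that cannot insert peroxisomal membrane proteins, and so lack normal peroxisomes, had log ratios near 0 in both comparisons. PEX3 encodes the membrane anchor for PEX19, the chaperone of these proteins. The pex3Δ strain had acute log ratios of 0.13, −0.08, 0.19 and 0.00 on replicates 1 to 4 (mean 0.06, standard error 0.09, limma adjusted p = 0.909). In pex19Δ they were 0.41, 0.09, −0.04 and −0.37 (mean 0.02, standard error 0.14). Neither strain had 1 sign on all 4 arrays, and the acute intervals reached down to −0.16 for pex3Δ and −0.33 for pex19Δ. On the adapted arrays pex3Δ ran from −0.24 to 0.45 with a median of 0.14 (mean 0.09, standard error 0.10). The pex19Δ strain ran from −0.54 to 0.27 with a median of 0.08 (mean −0.04, standard error 0.13). In pex19Δ adapted replicates 1 to 3 were below 0 and replicates 4 to 6 above it.

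The import receptors bind the targeting signals of matrix enzymes, PEX5 the common signal at the C-terminus and PEX7 the rarer one near the N-terminus. The pex5Δ strain had means of −0.06 (standard error 0.11) in the acute comparison and 0.09 (standard error 0.08) in adapted over acute. In pex7Δ the acute log ratios were 0.29, −0.36, −0.56 and −0.34 (mean −0.24, standard error 0.16, limma adjusted p = 0.683). Replicate 1 thus stood above 0 and the others below it, and on the adapted arrays 3 of 6 were below 0 (−0.43 to 0.41, mean −0.04, standard error 0.12). PEX18 and PEX21 encode partly redundant co-receptors of PEX7, and their strains had acute means of 0.02 (standard error 0.09) and 0.08 (standard error 0.19) and adapted over acute means of 0.04 and −0.07. PEX9 encodes a receptor for a subset of matrix enzymes in oleate medium. Its strain, known from the first tag alone, had acute log ratios of −1.25, −0.23, 0.32 and 0.06, so that its mean of −0.28 (standard error 0.27) rests largely on replicate 1. On the adapted arrays it was above 0 on 5 of 6, from −0.07 to 0.93 with a median of 0.30 (mean 0.34, standard error 0.12, limma unadjusted p = 0.0262, adjusted p = 0.353). This was the highest adapted over acute mean among the members.

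The docking complex of PEX13, PEX14 and PEX17 receives loaded receptors at the membrane, and PEX8 links it to the ubiquitin ligases from inside. The pex13Δ strain had acute log ratios of 0.50, −0.28, −0.61 and −0.37 (mean −0.19, standard error 0.19), again with replicate 1 above 0 and the others below. Its adapted values ran from −0.57 to 0.21 with a median of −0.15 (mean −0.15, standard error 0.12, limma adjusted p = 0.749). In pex17Δ the acute values were −0.02, 0.09, 0.25 and 0.19 (mean 0.13, standard error 0.09, limma adjusted p = 0.711), and the adapted ones ran from −0.24 to 0.48 with a median of 0.15 (mean 0.16, standard error 0.10). The acute means of its tags had opposite signs, −0.09 on the first and 0.37 on the second. The pex14Δ strain had means of −0.04 and −0.03 in the acute and adapted comparisons, and pex8Δ had −0.10 and 0.07. Over the 4 docking strains the acute median was −0.0684 and the adapted over acute median 0.0212, and the interval of each included 0.

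PEX2 and PEX10 encode RING ubiquitin ligases that mark the receptor for return to the cytosol, and their strains varied widely between arrays. The pex10Δ strain had acute log ratios of 0.69, −0.31, −0.11 and −0.74 (mean −0.12, standard error 0.23), and its adapted values ran from −0.73 to 0.58 with a median of 0.03 (mean 0.01, standard error 0.18). For pex2Δ the acute values were 0.03, 0.88, −0.48 and −0.01 (mean 0.10, standard error 0.22). Its adapted values ran from −1.23 to 0.59, with a median of −0.16 (mean −0.20, standard error 0.20, limma adjusted p = 0.81). Acute replicates 1 and 4 lay at opposite ends in pex10Δ, and acute replicate 2 was the highest in pex2Δ. Adapted replicate 4 was the lowest in both strains.

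Receptor ubiquitination and export need the conjugating enzyme PEX4, its membrane anchor PEX22, the ATPase PEX6 and PEX15, which holds the ATPase at the membrane. Their strains had small means. In pex6Δ the acute values were −0.21, 0.17, −0.16 and 0.01 (mean −0.05, standard error 0.10), and the adapted ones ran from −0.09 to 0.26 with a median of 0.04 (mean 0.08, standard error 0.07, limma adjusted p = 0.783). The pex15Δ strain had acute values of 0.36, −0.29, 0.10 and −0.22 (mean −0.01, standard error 0.13). Its adapted values ran from −0.51 to 0.70 with a median of 0.10 (mean 0.14, standard error 0.16). The pex4Δ strain had means of 0.06 and 0.14, and pex22Δ, measured by the first tag alone, −0.03 and 0.00. The acute interval of pex4Δ, −0.14 to 0.26, was among the narrower ones.

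Peroxins that set the size, number and membrane contacts of peroxisomes gave both the lowest and the highest acute mean of the 38. PEX30 encodes a reticulon-like protein of the endoplasmic reticulum, at sites where peroxisomes form. Its strain had acute log ratios of −0.60, 0.00, −0.67 and 0.10 (mean −0.29, standard error 0.16, limma adjusted p = 0.625), low on replicates 1 and 3 and near 0 on the others. It was above 0 on 6 of 6 adapted arrays, from 0.09 to 0.41 with a median of 0.13 (mean 0.19, standard error 0.07, limma unadjusted p = 0.0229, adjusted p = 0.337). In the whole pool, 3.43% of strains were above 0 on all 6 adapted arrays. The adapted over acute mean of pex30Δ was 0.39 on the first tag and 0.01 on the second. PEX34 helps to set peroxisome number. The pex34Δ strain had acute values of 0.05, 0.13, −1.03 and 1.02 (mean 0.04, standard error 0.32), with replicates 3 and 4 at opposite ends. On the adapted arrays it ran from −0.03 to 0.36 with a median of 0.20, above 0 on 5 of 6 (mean 0.20, standard error 0.07, limma unadjusted p = 0.0263, adjusted p = 0.353), and its tags gave 0.29 and 0.16.

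PEX28, PEX29, PEX31 and PEX32 encode further membrane peroxins of this class, PEX25 and PEX27 are relatives of PEX11, which promotes peroxisome division, and PEX35 affects peroxisome abundance. The pex29Δ strain had the highest acute mean, 0.29 (standard error 0.21, limma adjusted p = 0.75), with an adapted over acute mean of −0.12 (standard error 0.09). The pex32Δ strain had the lowest adapted over acute mean, −0.27 (standard error 0.15, limma adjusted p = 0.558), with 5 of 6 arrays below 0. Its acute mean was 0.13. By the first tag alone its adapted over acute value was −0.36, past the threshold of 0.005, and by the second tag −0.17, which was not. The acute and adapted over acute means were −0.13 and −0.02 for pex27Δ, −0.04 and −0.01 for pex25Δ, −0.04 and −0.13 for pex31Δ, −0.04 and 0.00 for pex28Δ, and 0.00 and 0.00 for pex35Δ. Of the 9 strains of this class, 6 had an acute mean below 0 and 5 an adapted over acute mean below 0.

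Strains without the core enzymes of beta-oxidation had acute and adapted over acute means within 0.1 of 0. FOX2 encodes the multifunctional hydratase and dehydrogenase and POT1 the thiolase that releases acetyl-CoA. The fox2Δ strain had acute log ratios of −0.37, −0.13, 0.14 and −0.04 (mean −0.10, standard error 0.11, limma adjusted p = 0.87), and adapted values from −0.23 to 0.32 with a median of −0.02 (mean 0.03, standard error 0.09). In pot1Δ the acute values were 0.01, −0.09, 0.07 and 0.10 (mean 0.02, standard error 0.08), and the adapted ones ran from −0.29 to 0.44 with a median of 0.01 (mean 0.03, standard error 0.10). The acute interval of pot1Δ, −0.18 to 0.22, lay within 0.25 of 0, as it did in 3 of the 38 strains and in 10.3% of all strains.

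Unsaturated fatty acids need auxiliary enzymes. SPS19 encodes a dienoyl-CoA reductase, ECI1 an enoyl-CoA isomerase and DCI1 a related isomerase. The sps19Δ strain was above 0 on 4 of 4 acute arrays, at 0.05, 0.06, 0.53 and 0.14 (mean 0.19, standard error 0.11, limma adjusted p = 0.644), where 9.17% of all strains were above 0 on all 4. Its adapted values ran from −0.17 to 0.40 with a median of 0.16 (mean 0.13, standard error 0.08), and its contrast was −0.33 (standard error 0.14, limma unadjusted p = 0.0349, adjusted p = 0.8). The eci1Δ strain had acute values of 0.26, −0.16, −0.13 and −0.16 (mean −0.05, standard error 0.11). On the adapted arrays it was below 0 on replicates 1 and 2, at −0.14 and −0.22, and between 0.23 and 0.39 on the other 4 (mean 0.17, standard error 0.10, limma adjusted p = 0.628). Without adapted replicates 1 and 2, a choice made after the values were seen, its mean was 0.36 and past the threshold of 0.005. The dci1Δ strain had means of 0.07 and −0.02.

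Fatty acids enter the peroxisome through the ABC transporter formed by PXA1 and PXA2 or are activated inside, with ATP brought in by the carrier ANT1. The pxa1Δ strain was below 0 on 4 of 4 acute arrays but close to it, at −0.06, −0.09, −0.02 and −0.08 (mean −0.06, standard error 0.07, limma adjusted p = 0.883), where 10.8% of all strains were below 0 on all 4. Its SD between these arrays, 0.0298, is far under the median of 0.225 over all strains. Both the common sign and this SD are those of the averaged tags, whose acute means were −0.136 on the first and 0.0221 on the second. Its adapted values ran from −0.10 to 0.26 with a median of −0.04 (mean 0.01, standard error 0.07), and pxa2Δ had means of −0.06 and −0.02. PCS60 encodes a peroxisomal enzyme of the acyl-CoA synthetase family. The pcs60Δ strain had acute values of 0.04, 0.22, −0.25 and 0.19 (mean 0.05, standard error 0.11) and was below 0 on 5 of 6 adapted arrays, from −0.62 to 0.11 with a median of −0.12 (mean −0.18, standard error 0.10, limma adjusted p = 0.557). The ant1Δ strain had means of −0.01 and −0.02, but its acute values reached 1.11 on replicate 2 and −1.19 on replicate 3.

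NADH and acetyl groups leave the peroxisome through the malate dehydrogenase MDH3, the citrate synthase CIT2 and the carnitine acetyltransferase CAT2. No strain of this group passed the threshold, and the interval of each included 0 in both comparisons. The cit2Δ strain had acute values of 0.33, −0.47, −0.28 and −0.26 (mean −0.17, standard error 0.15, limma adjusted p = 0.798), above 0 on replicate 1 alone. Its adapted values ran from −0.22 to 0.34 with a median of 0.01 (mean 0.03, standard error 0.09). In cat2Δ the acute values were −0.65, 1.16, −1.04 and 0.05 (mean −0.12, standard error 0.36), the widest spread of the members, with an SD of 0.967. On the adapted arrays it was below 0 on 5 of 6, from −0.68 to 0.21 with a median of −0.15 (mean −0.19, standard error 0.11, limma adjusted p = 0.588). The mdh3Δ strain had means of −0.04 and 0.09.

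**Figure D3:**
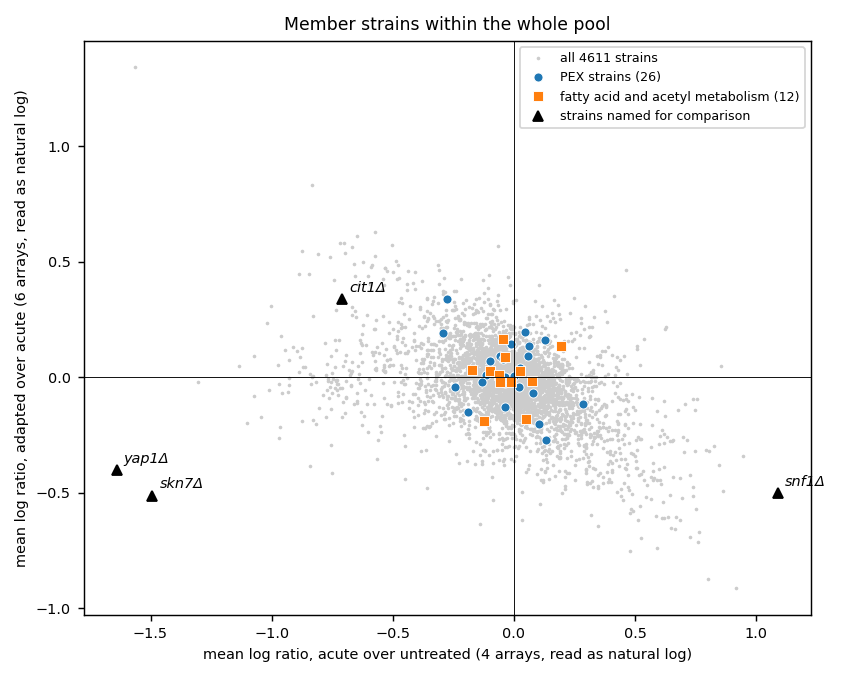
Mean log ratio of acute over untreated (horizontal) and adapted over acute (vertical), read as natural logs, for all 4611 strains (grey), 26 PEX strains (blue circles) and 12 strains of fatty acid and acetyl metabolism (orange squares). The 38 strains lie between −0.29 and 0.29 on the horizontal axis, and the 4 strains marked with triangles are named for comparison.

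The tags of a strain are separate measurements of it, and among the members their means correlated weakly. Over the 36 strains with both tags, the mean of the first and of the second tag had r = 0.0747 and rho = 0.114 in the acute response, and r = 0.16 and rho = 0.169 in adapted over acute. Over 4478 strains the values of r were 0.468 and 0.338. These are correlations across strains that share arrays and are given as a description. The tags had the same sign in 22 of 36 strains (61.1%) in the acute response and in 23 of 36 (63.9%) in adapted over acute, close to the shares of 59.8% and 58.4% over all strains. In pex13Δ the acute means were −0.61 on the first tag and 0.27 on the second, and in pex7Δ −0.59 and 0.11. In pex30Δ both were below 0, at −0.56 and −0.11, and in pex29Δ both were above, at 0.35 and 0.34.

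**Figure D4:**
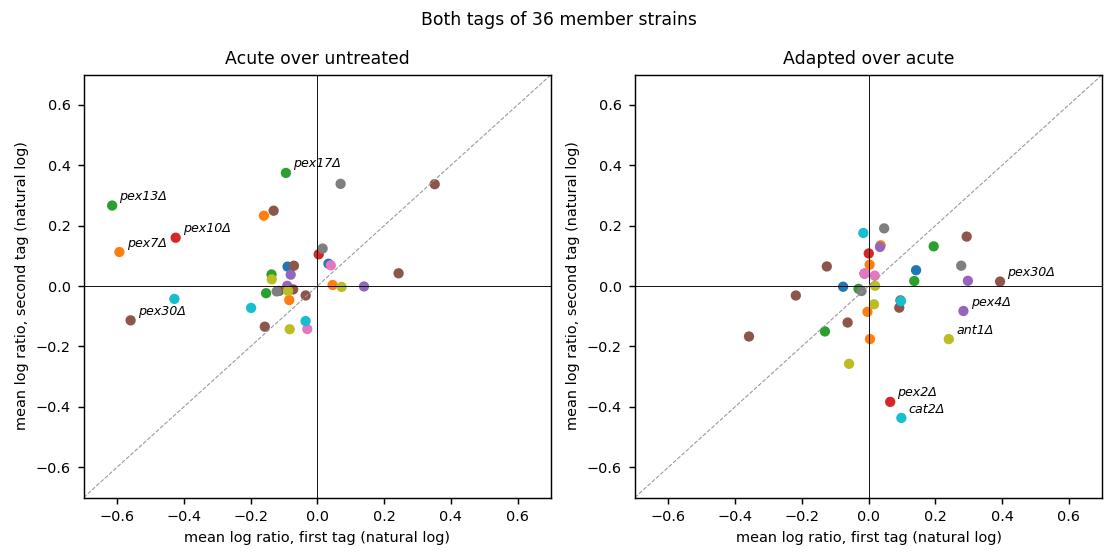
Mean log ratio by the first tag (horizontal) and by the second tag (vertical), on the natural log scale, for the 36 strains with both tags, in the acute response (left) and in adapted over acute (right), coloured by role as in the plot of values by array. The dashed line marks equal values, and the 5 strains farthest from it are named. The tags had the same sign in 22 of 36 strains on the left and 23 of 36 on the right.

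Proteins that act as partners, as relatives or in the same reaction were compared in 11 pairs on the same arrays, in both comparisons (exact permutation test that flips the sign of the difference on each array, two-sided, 22 tests). The pairs were chosen after the members' values were seen. The smallest p that the test allows is 0.125 on 4 arrays and 0.03125 on 6, so with 22 tests no pair could pass after adjustment, and the differences are given as values. The largest was cit2Δ against cit1Δ, which lacks the mitochondrial citrate synthase. The cit1Δ strain fell after the high dose, at −0.64, −0.85, −0.77 and −0.57 (mean −0.71, standard error 0.09, limma unadjusted p = 0.000281, adjusted p = 0.0761), and lay below cit2Δ on 4 of 4 arrays, by 0.54 on average (SD 0.30). The exact permutation p was 0.125. In adapted over acute, cit1Δ had 0.34 (standard error 0.12) and cit2Δ 0.03 (exact permutation p = 0.188). For mdh3Δ against mdh1Δ, without the mitochondrial malate dehydrogenase, the acute means were −0.04 and −0.02, and for the partners pxa1Δ and pxa2Δ both were −0.06. The cta1Δ strain, without peroxisomal catalase, had an acute mean of −0.04 and an adapted over acute mean of −0.11, against −0.23 and 0.18 for ctt1Δ, without cytosolic catalase. In adapted over acute, ctt1Δ was above cta1Δ on 5 of 6 arrays (mean difference −0.29 for cta1Δ minus ctt1Δ, exact permutation p = 0.0938), and pex30Δ was above pex32Δ on 5 of 6 (mean difference 0.46, exact permutation p = 0.0625).

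Other genes linked to peroxisomes or set beside them, 55 in 7 lists, gave 51 measured strains. Among the lists is 1 of 7 enzymes of the same reaction in another compartment, CIT1 included. In the acute response 1 strain fell and 1 rose (limma, two-sided, unadjusted p of 0.005), where 2.67% of all strains passed below 0 and 0.933% above. With the looser limma threshold of 0.05 there were 3 below and 1 above, where 6.92% and 5.75% of all strains passed. None passed 0.005 in adapted over acute or in the contrast. A limma p under 0.05 was reached by 2 strains below 0 and 5 above in adapted over acute, where 6.38% and 4.47% of all strains reached it. In the contrast it was reached by 0 below and 1 above, where 1.54% and 4.01% of all strains reached it. Of the 2 acute calls, cit1Δ fell. The other, snf1Δ, lacks the kinase that releases fatty acid and other genes from glucose repression, and it rose to 1.40, 0.53, 0.86 and 1.57 (mean 1.09, standard error 0.19, limma unadjusted p = 0.00175, adjusted p = 0.0995). This was the highest acute mean of all strains, with 0.70 on the first tag and 1.60 on the second. It missed the threshold by either tag alone, with unmoderated spreads, and without acute replicate 1 (1.02), 3 (1.21) or 4 (1.00). In adapted over acute snf1Δ was below 0 on 5 of 6 arrays (mean −0.50, standard error 0.16, limma unadjusted p = 0.0146, adjusted p = 0.272), past the threshold of 0.005 with a shared spread and under none of the other alternatives. Its contrast was −0.59 (standard error 0.27, limma adjusted p = 0.919). The oleate regulators themselves had acute means of −0.16 for oaf1Δ, −0.07 for pip2Δ and −0.07 for adr1Δ.

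For the lists that follow, passing means an unadjusted limma p of 0.005 in any of the 3 comparisons. Over all strains, 3.6% passed in the acute comparison, 2.78% in adapted over acute and 1.71% in the contrast. In lists this small, an absence of calls is therefore no result about their genes. Of 8 strains for peroxisome inheritance and division none passed. The fis1Δ strain, without a fission adaptor shared with mitochondria, had an acute mean of −0.36 (standard error 0.15, limma adjusted p = 0.441) and an adapted over acute mean of 0.29 (standard error 0.11, limma adjusted p = 0.369). Of 16 other peroxisomal enzymes and 8 genes of the carnitine shuttle and glyoxylate cycle none passed, and yat2Δ, without a carnitine acetyltransferase, was below 0 on 6 of 6 adapted arrays (mean −0.13, standard error 0.06, limma adjusted p = 0.47), where 3.93% of all strains were. Of 5 strains for fatty acid uptake and activation outside the peroxisome none passed, all with acute means between −0.10 and −0.01, among them acb1Δ, without the acyl-CoA binding protein, at −0.10 (standard error 0.10). Of 4 pexophagy strains none passed. The atg36Δ strain, without the receptor that selects peroxisomes for degradation, had means of −0.01 (standard error 0.11) in the acute comparison and 0.33 in adapted over acute (standard error 0.11, limma unadjusted p = 0.0188, adjusted p = 0.298). Without adapted replicates 1 and 2, chosen after the values were seen, that mean was 0.52 and past the threshold of 0.005.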

How the data were processed

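The deposited values are natural log values as read here, log ratios of Cy5 over Cy3 per spot that the authors made with the hoptag package in R after median and loess correction. Neither the log base nor the version is stated in those sources, and another base would rescale every log ratio and leave every p as it is. No spot intensity was used, so how bright a spot stood behind a ratio is unknown. Of 22575 spots, 16850 hold values on all arrays. Column medians ran from −0.0171 to 0.0115.

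First-tag spots up to place 5400 kept their sign and all other spots were turned. In the first tag, replicate spots had the opposite value of their main spot in 3510 of 3510 cases below that place. Above it they had the same value in 362 of 362 (tolerance 1e-09). Second-tag spots have IDs above 5400 and were turned by the same rule. Their replicate spots equalled the main spot in 3410 of 3410 and 362 of 362 cases, which does not settle their sign relative to the first tag. After turning, the tags correlated at 0.0567 to 0.224 on single arrays. Spots were averaged per tag and tags per strain, giving 4611 strains, 4478 with both tags. Arrays were quantile normalized within each set. Genes were named from the platform annotation and RefSeq R64.

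Means and the contrast were fitted over all strains with limma 3.58.1 in R 4.3.3 (lmFit and eBayes, two-sided), at the Methods' unadjusted p of 0.005, with Benjamini-Hochberg adjustment over all 4611 strains. The fit was run on simulated data with independent noise on each array. The arrays here are correlated within a set, so that run is no check of the p-values. Tables and plots used matplotlib 3.10.9, scipy 1.17.1, numpy 2.4.6 and pandas 2.3.3 in Python 3.11.15. The members, lists, pairs and rules were chosen with earlier results of these data known. Every member is named with its means. Values on each acute array, and the range and median over the 6 adapted arrays, are given for members past the threshold (there were none) and for the 2 per role with the lowest acute or adapted p, and of the other lists those past the threshold or the one with the lowest p are described. Each culture came from a separate aliquot of the pool. Alternatives were other normalizations, single tags, 1 sign for all spots, other spreads and thresholds, both-tag strains, a replicate block and leaving out arrays.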

Additional observations from a re-analysis of the deposited data

Results flagged for a closer look

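Of 76 array sets of member strains, 2 held an array far from the others, by a criterion that chance meets in about 1 of 20. The eci1Δ strain was at 0.259 on acute replicate 1 and between −0.16 and −0.126 on the other 3. The pex5Δ strain was at −0.391 on acute replicate 3 and between 0.0358 and 0.0842 on the others. Among the other strains named, fis1Δ was at −0.897 on acute replicate 3 and between −0.221 and −0.117 on the others, with a mean of −0.179 without that array.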

How the results depend on the processing

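The number of member strains past the threshold was 0 for the acute comparison and for the contrast under each alternative at an unadjusted p of 0.005, the replicate block and each array left out included. In adapted over acute it was 1 by the first tag alone (pex32Δ, −0.358) and 1 without adapted replicates 1 and 2, added after seeing the data (eci1Δ, 0.358), and 0 under the others. At an unadjusted p under 0.05 it was 0 in the acute response, 3 in adapted over acute and 1 in the contrast. Of 1888 member values under 21 alternatives, 1855 stayed on their side of the threshold and within 1 SD, 31 moved further and 2 passed the threshold. The SD is that of the strain's own values between arrays, a wide measure. Acute means of −0.614 and 0.266 by the tags of pex13Δ both count as within it. A shared spread and unmoderated spreads leave every mean as it is, so the count is no measure of robustness.

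The acute median of members, −0.036, was −0.086 by the first tag, 0.0128 by the second and 0.0336 with one sign for all spots, and ran from −0.0507 to 0.00855 with an array left out. The adapted over acute median ran from 0.0071 to 0.0387 with an array left out. The median contrast, 0.0328, was −0.0281 by the second tag, −0.0275 with one sign and −0.0254 with the replicate block, and ran from −0.0228 to 0.0481 with an array left out. With one sign for all spots, the acute mean of cit1Δ reversed to 0.099. In the main fit its acute means were −0.81 on the first tag and −0.57 on the second, each below 0 on 4 of 4 arrays. The setting with one sign reverses, relative to the second tag, those first-tag spots that otherwise keep their sign. Whether this alone accounts for the reversal in cit1Δ was not tested. Over all strains, acute calls (166) were 76 by the first tag, 70 with no moderation, 55 with one sign, 264 with a shared spread, 3 at an adjusted p under 0.05 and 584 at an unadjusted p under 0.05. Adapted over acute calls (128) were 65 by the first tag, 53 with one sign, 195 with a shared spread, 1 at the adjusted p and 500 at the unadjusted p under 0.05. Contrast calls (79) were 44, 49, 23, 128, 16 and 256 in the order given for the acute calls. With an array left out they ran from 79 to 125, from 77 to 109 and from 52 to 82.

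Whether equal replicate numbers pair the arrays of the 2 sets was not settled. Deviations from the set mean, with the adapted sign turned, correlated at 0.339, −0.264, 0.169 and 0.236 between same-numbered arrays. Differently numbered arrays were not compared in this way. With the replicate block the contrast called 71 strains, 0 of them members.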
